A study of Mus musculus with 6 samples.

Results

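Cholesterol genes were followed in whole retina of mouse pups with oxygen-induced retinopathy (OIR), a model in which oxygen stops the growth of retinal vessels and the return to room air leaves a hypoxic retina that grows abnormal vessels. The genes were chosen by symbol for their known roles, with earlier results of these data known, and number 31 of the 22173 genes listed in the files. They cover 19 genes of cholesterol synthesis, 5 genes of the sterol-sensing SREBP system, 2 genes of sterol transport inside cells, and 5 genes of efflux and its LXR receptors. All 31 were listed and all 31 passed the filter on low values. The Control group comprised 3 libraries from wild-type C57BL/6J pups that stayed in room air from postnatal day 7 to day 17. The OIR group comprised 3 libraries from wild-type C57BL/6J pups that spent days 7 to 12 in 75% oxygen and days 12 to 17 in room air. Retinas of both groups were taken at day 17. Whether each library is 1 animal or a pool is not in the labels, so p-values measure the spread between these libraries, which may in part be technical. The series names biglycan and CXCL12 in pericytes, and its design text sets expression at day 17 in relation to pathological vessel growth.

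Values are RPKM, read counts scaled by gene length and by library depth. The depth recovered from the values was 35615501 to 38025623 reads per library, and between 88 and 51345 reads lay behind each value of the 31 genes. The retinal label was checked on 5 rod photoreceptor markers, which summed to 10021 to 12410 RPKM. Lens genes (22 listed) made up 6.36% of Control 3 and 0.556% of OIR 2, and 0.0153% to 0.0586% of the other libraries. Results are given below with and without those 2 libraries where that changes a call.

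Cells make cholesterol from acetyl-CoA through mevalonate, isoprenoid phosphates, squalene and lanosterol. When sterols in the endoplasmic reticulum run low, the escort protein SCAP carries the SREBP transcription factors to the Golgi for cleavage, and the freed fragments switch on the synthesis genes, while INSIG proteins hold SCAP back when sterols are plentiful. LXR receptors respond to oxysterols and switch on efflux genes such as Abca1, Abcg1 and Apoe. In the retina, Müller glia, the main glial cell, are held to be a major site of cholesterol synthesis and of APOE release.

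Promoter sequence is shown for 4 genes that fell in OIR, since the SREBP proteins act at short elements close to the start site. All 4 hold an exact or near match of the sterol element, while Idi1, which also fell, holds none. RefSeq promoter windows of 300 bases on build GRCm38.p6, from 250 before to 50 after the start, were used for 25 of the 31 genes. No window was used for Fdps, Fdft1, Sqle and Stard4, which fell, nor for Abcg1 and Npc1. The 250 bases before the start are printed 5′ to 3′ on the gene's strand, which is the plus strand for all 4. Capitals mark the sterol regulatory element TCACNCCAC with at most 1 mismatch, and the CCAAT box, each on either strand.
Hmgcs1 chr13:119690101-119690350: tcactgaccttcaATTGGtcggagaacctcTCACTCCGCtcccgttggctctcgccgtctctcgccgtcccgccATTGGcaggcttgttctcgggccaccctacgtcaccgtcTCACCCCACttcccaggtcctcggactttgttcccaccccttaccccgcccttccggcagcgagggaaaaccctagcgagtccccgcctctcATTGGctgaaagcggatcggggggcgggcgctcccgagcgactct
Nsdhl chrX:72918271-72918520: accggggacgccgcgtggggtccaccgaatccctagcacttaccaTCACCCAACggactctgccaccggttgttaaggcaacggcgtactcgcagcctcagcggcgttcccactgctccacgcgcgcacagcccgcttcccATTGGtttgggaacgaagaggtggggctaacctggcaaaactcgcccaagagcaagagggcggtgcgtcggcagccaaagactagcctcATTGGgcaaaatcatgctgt
Insig1 chr5:28071162-28071411: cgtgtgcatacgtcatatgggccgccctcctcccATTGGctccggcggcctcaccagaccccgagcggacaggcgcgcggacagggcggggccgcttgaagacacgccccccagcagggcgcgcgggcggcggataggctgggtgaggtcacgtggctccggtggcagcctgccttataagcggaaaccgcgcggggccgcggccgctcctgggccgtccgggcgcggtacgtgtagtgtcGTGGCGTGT
Srebf2 chr15:82147019-82147268: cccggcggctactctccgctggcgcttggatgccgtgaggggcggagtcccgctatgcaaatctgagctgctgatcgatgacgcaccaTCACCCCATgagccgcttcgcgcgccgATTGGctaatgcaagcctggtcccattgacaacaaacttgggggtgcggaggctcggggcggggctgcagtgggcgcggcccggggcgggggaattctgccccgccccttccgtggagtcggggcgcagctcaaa

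The window of Hmgcs1 held an exact sterol regulatory element, whose first base lay 137 bases before the start site. It was the only exact match among the 25 genes, and 1.44% of all genes in the table and 1.39% of the tested genes held one. With 1 mismatch, a setting added after the exact search, the element was found in 12 of the 25 genes. The share was 26.7% of all genes and 29.1% of the tested genes. The 12 included 7 of the 16 synthesis genes and 6 of the 7 lower genes with a window. Msmo1, Hsd17b7, Dhcr7, Insig2 and Nr1h3, which did not pass the test in OIR, were among them too. So was Apoe, which rose, as 1 of the 4 higher genes with a window. The CCAAT box, on either strand, was found in 15 of the 16 synthesis genes with a window and in 43.2% of the 9692 tested genes with one. Hmgcs1 had 3 CCAAT boxes in the bases shown. The GC box GGGCGG was found in 14 of those 16 genes and in 69.7% of the tested genes, and ACGTG, the core of the hypoxia element, in 3 of 16 and in 29.5%. The LXR direct repeat, the half-site AGGTCA repeated with a gap of 4 bases, was in none of the 25 windows, exact or with 1 mismatch, and in 0.0148% and 0.278% of all genes. Windows on chromosome 18 were left out of the search and of these shares. Both strands were searched, and 18 of the 25 genes had 1 window while the others had several, such as Srebf1 with 3. A match of letters does not show a bound site, and a missing match does not show that a site is absent. The LXR repeat as searched was in 0.0% of tested genes exactly and in 0.196% with 1 mismatch. Finding none in these windows therefore says little about LXR sites.

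In OIR, 8 of the 19 synthesis genes fell and 1 rose, while 3 of the 5 efflux and LXR genes rose and none fell. Of the 31 genes, 11 fell, 6 rose and 14 did not pass the test. Genes that fell came from the synthesis route (Acat2, Hmgcs1, Idi1, Fdps, Fdft1, Sqle, Cyp51 and Nsdhl), from sterol sensing (Srebf2 and Insig1) and from transport (Stard4). Those that rose were Abca1, Abcg1, Apoe, Npc1, Srebf1 and, alone among synthesis genes, Pmvk. The 31 genes had a median log2 fold change of -0.18, against 0.03 over all 12112 tested genes.

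The test was limma on log2(RPKM + 1), with Benjamini-Hochberg adjustment over the 12112 tested genes and genes with an adjusted p under 0.05 were called. It called 18.8% of all tested genes, 11.6% as higher and 7.22% as lower. The cholesterol genes were called lower in 35.5% and higher in 19.4%. All 3 OIR values lay below all 3 Control values in 13 of the 31 genes, or 41.9%, against 15.0% of all tested genes, and above them in 9, or 29.0%, against 23.6%. The groups did not overlap in either direction in 22 of the 31, against 38.7% of all tested genes. Higher genes made up 61.7% of all calls and 51.2% with median-of-ratios scaling, and under that scaling 11 cholesterol genes were lower and 6 higher. The count of 11 lower genes moved when single libraries were left out. It was 1 without Control 1, 2 without Control 2, 5 without Control 3, 2 without OIR 1, 2 without OIR 3 and 14 without OIR 2, while the count of 6 higher genes was 3 without Control 1. Over all tested genes, lower calls went from 875 to 265 without Control 1, 421 without Control 2, 212 without OIR 1 and 348 without OIR 3, and higher calls from 1407 to 658 without Control 1, 513 without OIR 1 and 697 without OIR 3. Without both lens-rich libraries, Npc1 missed the threshold, Mvk, Msmo1 and Dhcr7 passed as lower and Nr1h2 as higher, at limma adjusted p of 0.00857, 0.00476, 0.035 and 0.0267. Each of the 17 called genes kept its direction in all 13 alternative fits. The groups of all 17 did not overlap, so leaving out libraries could not have reversed a direction.

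**Figure D1:**
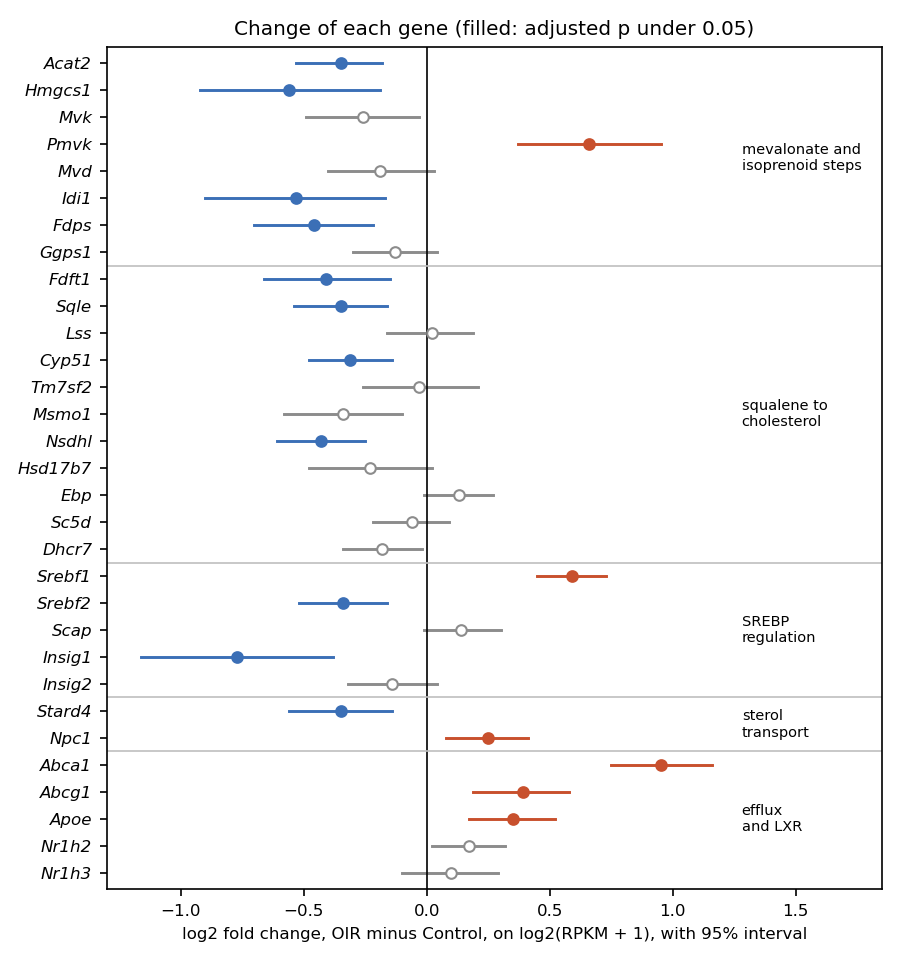
Log2 fold change of each of the 31 genes, OIR minus Control, on the log2(RPKM + 1) scale, with its 95% interval and grouped by role. Filled points passed the adjusted threshold of 0.05 (red higher, blue lower), and open grey points did not. Insig1 lies lowest at -0.77 and Abca1 highest at 0.95.

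The first stage of synthesis, from acetyl-CoA to farnesyl diphosphate, was lower at 4 of its 8 genes. Hmgcs1, which joins acetyl-CoA and acetoacetyl-CoA on the way to mevalonate, stood at 41.9, 43.1 and 40.5 RPKM in Control 1, 2 and 3 and at 23.1, 36.7 and 26.3 RPKM in OIR 1, 2 and 3. OIR 1 and OIR 3 were well below every Control library, and OIR 2 came close to them without overlap. Its mean fell from 41.8 ± 1.29 to 28.7 ± 7.10 RPKM (SD, n = 3 each), and limma gave a log2 fold change of -0.56 (standard error 0.154, adjusted p 0.0473).

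Idi1, the isomerase that readies isoprenoid units for joining, was at 3.64, 3.88 and 3.98 RPKM in the Control libraries and at 1.86, 3.47 and 1.92 RPKM in OIR 1, 2 and 3. The same 2 OIR libraries were low and OIR 2 was again close to Control. With 197 to 413 reads per library it was among the lower-expressed genes of the route, and its limma adjusted p was 0.0494. Fdps, the farnesyl diphosphate synthase, had Control values of 33.5, 34.3 and 34.2 RPKM and OIR values of 21.002, 29.7 and 23.4 RPKM, a ratio of 0.727 with a limma adjusted p of 0.0180. Acat2, the cytosolic thiolase of the first step, fell from 12.9 ± 0.874 to 9.87 ± 0.762 RPKM, and here OIR 2 and OIR 3 were level at 10.3 RPKM each.

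Mvk, Pmvk and Mvd encode the kinases and the decarboxylase that turn mevalonate into isopentenyl diphosphate, and they did not move alike. Mvk was at 13.7 ± 0.602 RPKM in Control and 11.3 ± 1.90 in OIR, and Mvd at 11.7 ± 1.26 and 10.2 ± 1.19 RPKM, with limma adjusted p of 0.1 and 0.201. Pmvk, the kinase between them, was at 12.2, 12.7 and 11.6 RPKM in Control 1, 2 and 3 and at 22.2, 15.5 and 22.5 RPKM in OIR 1, 2 and 3. All 3 OIR values of Pmvk were above Control, with OIR 2 the closest. Its ratio was 1.65, and the log2 fold change was 0.66 (standard error 0.129, limma adjusted p 0.0109).

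The gene length that made the Pmvk values whole reads was 3396 bases, against 1713 bases of Pmvk exons in GENCODE M21, so the region counted for it is not that of this annotation. Other genes differed as widely: the length was 8003 against 4227 bases for Fdft1, 6875 against 3473 for Insig2, 1461 against 4208 for Fdps and 2328 against 6144 for Msmo1. No other M21 gene shares exon bases with Pmvk. Ggps1, which leads farnesyl diphosphate off to geranylgeranyl diphosphate, was at 10.4 ± 0.826 RPKM in Control and 9.38 ± 0.429 in OIR, with a 95% interval of the log2 fold change from -0.30 to 0.04.

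Most calls of this stage did not hold when single libraries were left out. Those of Hmgcs1, Idi1 and Fdps ended without any 1 library other than OIR 2, that of Acat2 without Control 1 or OIR 1, and that of Pmvk without Control 1, at limma adjusted p from 0.0501 to 0.159. Over the 6 such fits the log2 fold change ran from -0.74 to -0.42 for Hmgcs1 and for Idi1, from -0.60 to -0.35 for Fdps, from -0.40 to -0.29 for Acat2 and from 0.57 to 0.83 for Pmvk. The call of Idi1 also ended with median-of-ratios scaling, at 0.0508, with lens reads removed, at 0.0507, and with a pseudocount of 0.1, at 0.0528. Without OIR 2, Mvk and Mvd passed as lower, at 0.00759 and 0.05.

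**Figure D2:**
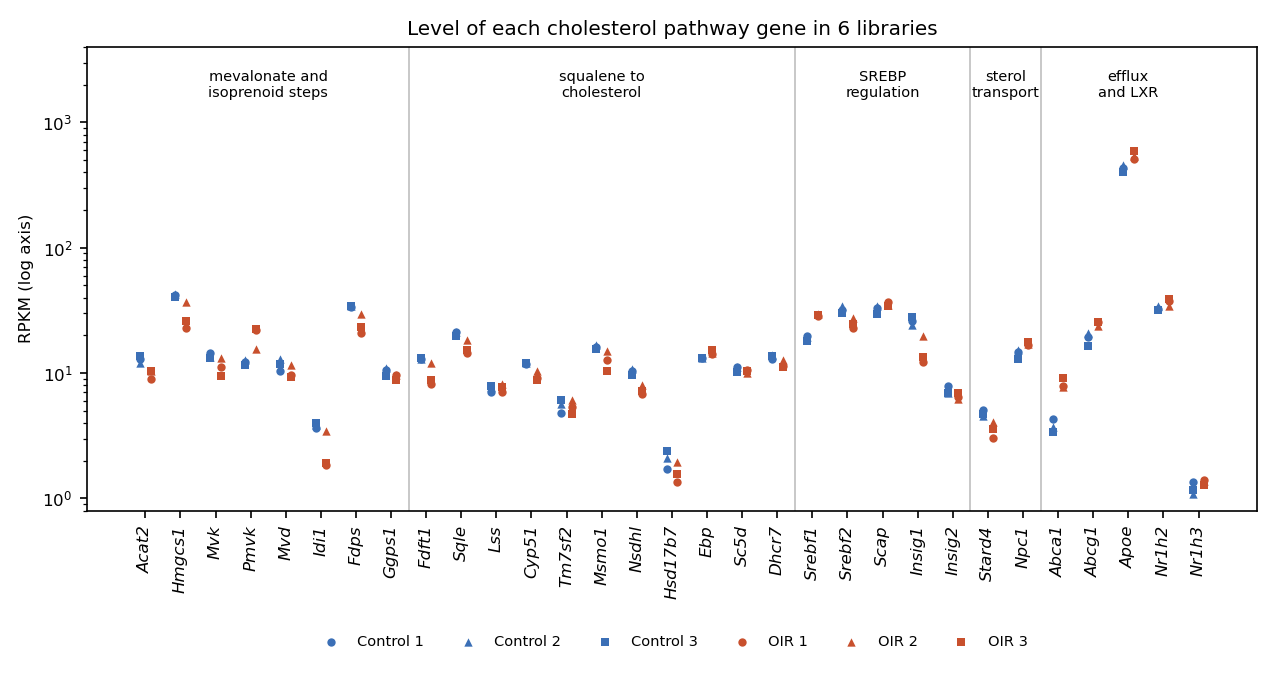
Level of each of the 31 genes in RPKM on a log axis, Control libraries in blue and OIR libraries in red, with circles, triangles and squares for replicates 1, 2 and 3. Genes run in pathway order, and the red triangles of OIR 2 lie nearest to the blue Control points at Hmgcs1, Idi1, Fdps, Fdft1 and Insig1.

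The second stage, from squalene to cholesterol, was lower at 4 of its 11 genes, which were Fdft1, Sqle, Cyp51 and Nsdhl. Fdft1, the squalene synthase, had Control values of 12.8, 12.9 and 13.2 RPKM and OIR values of 8.21, 11.9 and 8.80 RPKM. Sqle, the squalene epoxidase, had Control values of 21.2, 21.2 and 19.9 RPKM and OIR values of 14.6, 18.4 and 15.3 RPKM. For both genes OIR 2 sat between the Control libraries and the other OIR libraries, and the groups did not overlap. The ratios were 0.744 for Fdft1 and 0.776 for Sqle, with limma adjusted p of 0.0331 and 0.0197.

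Cyp51, which removes a methyl group from lanosterol, fell from 11.9 ± 0.157 to 9.43 ± 0.903 RPKM, with a limma adjusted p of 0.0206. Nsdhl, a dehydrogenase of the complex that strips further methyl groups from the sterol ring, was at 10.3, 10.8 and 9.61 RPKM in Control 1, 2 and 3 and at 6.84, 8.09 and 7.14 RPKM in OIR 1, 2 and 3. Its OIR libraries were closer together than those of Fdft1 or Sqle, and the ratio was 0.718. The log2 fold change of Nsdhl was -0.43, with standard error 0.0814 and limma adjusted p 0.00700, and it was the only lower gene of the 31 whose call held without each library in turn, at an adjusted p of at most 0.0412.

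The partners of Nsdhl in that complex were Msmo1, at 16.1 ± 0.572 RPKM in Control and 12.6 ± 2.26 in OIR, and Hsd17b7, at 2.08 ± 0.338 and 1.62 ± 0.298 RPKM. Msmo1 did not overlap between groups and missed the threshold at a limma adjusted p of 0.0521, and it passed as lower with median-of-ratios scaling, with lens reads removed, with limma-voom and without OIR 2, at 0.0479, 0.0483, 0.0389 and 0.00271. Hsd17b7 overlapped between groups, with a limma adjusted p of 0.173.

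The remaining genes of the second stage did not pass. Lss, the lanosterol synthase, was at 7.58 ± 0.438 RPKM in Control and 7.69 ± 0.578 in OIR, and the interval of its log2 fold change ran from -0.16 to 0.19. Tm7sf2, a sterol reductase, was at 5.50 ± 0.658 and 5.39 ± 0.727 RPKM, with an interval from -0.26 to 0.21. The late enzymes were Ebp, an isomerase at 13.2 ± 0.0362 RPKM in Control and 14.6 ± 0.549 in OIR, Sc5d, a desaturase at 10.8 ± 0.586 and 10.3 ± 0.256, and Dhcr7, the reductase that can yield cholesterol, at 13.5 ± 0.582 and 11.8 ± 0.796. Ebp lay above Control and Dhcr7 below it in all 3 OIR libraries, with limma adjusted p of 0.183 and 0.108. Some genes of the route overlap others, and reads of such pairs may not be separate: Fdft1 shares 774 exon bases with Ctsb, at 216.3 RPKM in Control and 250.6 in OIR, Tm7sf2 shares 532 with Vps51, Ggps1 shares 257 with Arid4b and Cyp51 shares 166 with Akap9. Fdps shares 1124 exon bases on its own strand with Gm43738, and Hmgcs1 shares 557 with Gm48342 on the opposite strand, and values of these partners were not used here. The calls of Sqle and Cyp51 ended without Control 1, Control 2, OIR 1 or OIR 3, and that of Fdft1 also without Control 3, at limma adjusted p from 0.0578 to 0.128.

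Genes that sense sterols split in direction. Insig1, an anchor that keeps SCAP in the endoplasmic reticulum and itself an SREBP target, changed most among the lower genes. It stood at 25.9, 24.2 and 28.2 RPKM in Control 1, 2 and 3 and at 12.3, 19.8 and 13.5 RPKM in OIR 1, 2 and 3. OIR 1 and OIR 3 were near each other and OIR 2 lay between them and Control. The mean fell from 26.1 ± 2.02 to 15.2 ± 3.999 RPKM, and the log2 fold change was -0.77 (standard error 0.164, limma adjusted p 0.0223). Insig2, its relative, was at 7.26 ± 0.561 RPKM in Control and 6.49 ± 0.381 in OIR, with an interval from -0.32 to 0.04.

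The genes of the SREBP proteins moved in opposite directions. Srebf1, whose product is tied mostly to fatty acid genes, was at 19.8, 19.4 and 18.1 RPKM in the Control libraries and at 28.5, 29.7 and 29.3 RPKM in OIR 1, 2 and 3. The 3 OIR libraries, OIR 2 included, were close together and far above Control. Its ratio was 1.53, and the log2 fold change was 0.59 (standard error 0.0638, limma adjusted p 0.000404). Srebf2, whose product is tied mostly to cholesterol synthesis, had Control values of 32.0, 34.3 and 30.03 RPKM and OIR values of 23.0, 27.7 and 24.7 RPKM. Every OIR value was below Control, and the ratio was 0.783 with a limma adjusted p of 0.0169. Scap was at 32.2 ± 2.31 RPKM in Control and 35.6 ± 1.30 in OIR, above Control in all 3 libraries, with a limma adjusted p of 0.175.

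Within a library, the ratio of Srebf1 to Srebf2 does not depend on how the library was scaled. It was 0.620, 0.566 and 0.604 in Control 1, 2 and 3 and 1.24, 1.07 and 1.19 in OIR 1, 2 and 3, so that Srebf2 was the higher of the pair in each Control library and Srebf1 in each OIR library. For Insig1 to Insig2 the ratio was 3.28, 3.52 and 4.04 in Control and 1.92, 3.20 and 1.96 in OIR. The ratio of Nr1h2 to Nr1h3, the genes of both LXR receptors, was 27.6 ± 3.91 in Control and 27.3 ± 2.72 in OIR. A two-sided exact permutation test over the 6 libraries gave p = 0.1, 0.1 and 0.9 for these 3 pairs and adjusted p of 0.15, 0.15 and 0.9, and 0.1 is the smallest p that 3 against 3 allows.

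**Figure D3:**
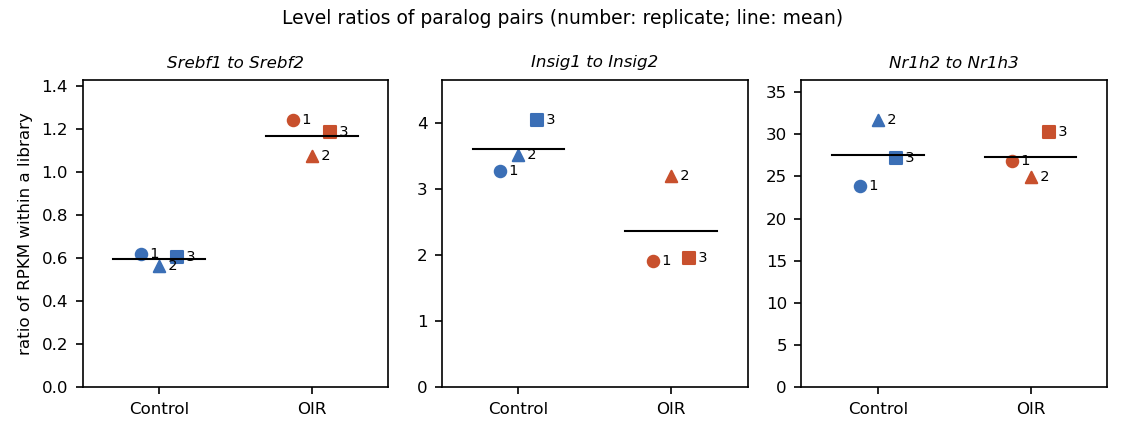
Ratio of RPKM within each library for 3 pairs of related genes, with the replicate number beside each point and a line at the group mean. The Srebf1 to Srebf2 ratio lies between 0.566 and 0.620 in Control and between 1.07 and 1.24 in OIR, and OIR 2 has the highest OIR ratio of Insig1 to Insig2, at 3.20.

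The call of Srebf1 held without each library in turn, at a limma adjusted p of at most 0.00385. The call of Srebf2 ended without Control 1, Control 2, OIR 1 or OIR 3, and that of Insig1 without Control 1, Control 2, Control 3 or OIR 3, at 0.0542 to 0.0871. Over all 6 such fits the log2 fold change stayed between -0.41 and -0.28 for Srebf2 and between -0.96 and -0.64 for Insig1. The files give 1 value per gene, so the SREBP-1a and SREBP-1c transcripts of Srebf1 were not told apart. Srebf1 shares 109 exon bases with Rai1, at 2.28 RPKM in Control and 2.86 in OIR.

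In sterol transport both genes passed, in opposite directions. Stard4, an SREBP-driven carrier that moves sterol between membranes, was at 5.06, 4.52 and 4.70 RPKM in Control 1, 2 and 3 and at 3.01, 4.05 and 3.56 RPKM in OIR 1, 2 and 3. Npc1, which passes cholesterol out of the lysosome after lipoprotein uptake, was at 14.8, 15.3 and 12.9 RPKM in Control and at 16.7, 16.9 and 17.8 RPKM in OIR. Neither gene overlapped between groups, and the ratios were 0.744 and 1.20 with limma adjusted p of 0.0301 and 0.0462. The call of Npc1 ended without each of the 6 libraries and that of Stard4 without each library other than OIR 2, at limma adjusted p from 0.0524 to 0.163. Npc1 also missed the threshold without both lens-rich libraries, at 0.0513. It shares 511 exon bases with Rmc1 on the opposite strand, which was at 13.0 RPKM in Control and 15.4 in OIR, so reads of the pair may not be separate.

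The 3 efflux genes Abca1, Abcg1 and Apoe rose. Abca1, the transporter that loads cholesterol onto apolipoproteins, was at 4.28, 3.73 and 3.40 RPKM in Control 1, 2 and 3 and at 7.89, 7.81 and 9.15 RPKM in OIR 1, 2 and 3. Each OIR library was far above each Control library, and OIR 2 was level with OIR 1. Its mean rose from 3.80 ± 0.446 to 8.28 ± 0.754 RPKM, a ratio of 2.18, and the log2 fold change was 0.95 (standard error 0.0929, limma adjusted p 0.000260). Abcg1, a transporter that passes cholesterol to lipoprotein particles, had Control values of 19.5, 20.9 and 16.4 RPKM and OIR values of 25.6, 23.7 and 25.6 RPKM. The groups of Abcg1 were apart by less than those of Abca1, at a ratio of 1.32 and a limma adjusted p of 0.0140.

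Apoe, the main lipid-carrying apolipoprotein of neural tissue, had the highest level of the 31 genes, ranking 70 of 12112 by its Control mean. It was at 436.6, 454.9 and 399.0 RPKM in Control 1, 2 and 3 and at 514.5, 538.0 and 588.4 RPKM in OIR 1, 2 and 3. No OIR library came down to a Control level, and the ratio was 1.27 with a limma adjusted p of 0.0157. The LXR receptor genes did not pass. Nr1h2, the gene of LXR-beta, was at 32.7 ± 1.18 RPKM in Control and 36.9 ± 2.42 in OIR, and Nr1h3, the gene of LXR-alpha, at 1.20 ± 0.141 and 1.35 ± 0.0582 RPKM with 88 to 114 reads per library. Their limma adjusted p were 0.113 and 0.467, and Nr1h2 passed as higher without OIR 2, at 0.0477. The call of Abca1 held without each library in turn, at an adjusted p of at most 0.00499, while that of Abcg1 ended without OIR 1, at 0.0655, and that of Apoe without Control 1 or OIR 3, at 0.0567 and 0.0759.

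The OIR libraries did not change equally. Set against each gene's Control mean, the median over the 19 synthesis genes was 78.5% in OIR 1, 92.4% in OIR 2 and 74.9% in OIR 3, and 99.7%, 102.5% and 100.5% in Control 1, 2 and 3. Summed over the 19 genes, the level was 262.7, 270.6 and 261.9 RPKM in the Control libraries and 208.8, 247.3 and 213.2 RPKM in OIR 1, 2 and 3. The 5 efflux and LXR genes had medians of 119.6%, 125.1% and 135.1% in OIR 1, 2 and 3, so that OIR 2 was not the weakest there. OIR 2 was the OIR library nearest to the Control mean in 11 of the 11 lower cholesterol genes and in 3 of the 6 higher ones. Over all tested genes the same held for 86.9% of the lower and 81.0% of the higher calls.

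**Figure D4:**
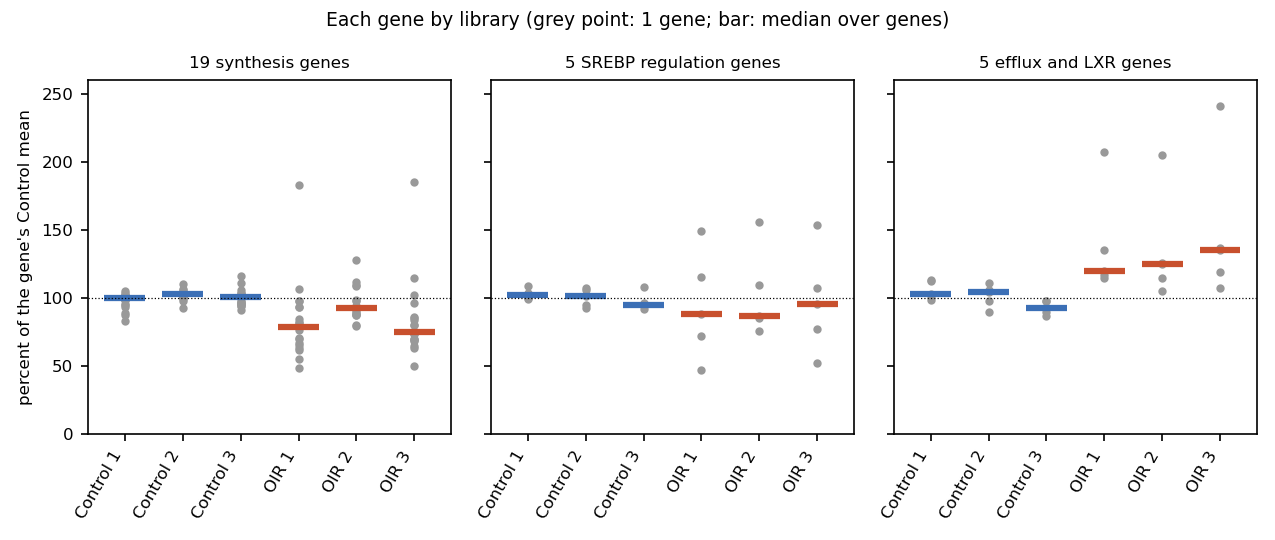
Level of each gene in each library as a percent of that gene's Control mean, for synthesis, SREBP regulation, and efflux and LXR genes, with a bar at the median over genes. The synthesis medians are 78.5%, 92.4% and 74.9% in OIR 1, 2 and 3, with Pmvk as the points above 120%, and the efflux medians are 119.6%, 125.1% and 135.1%, with Abca1 as the points above 200%.

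Markers of several cell types also differed between the groups. Of the 5 rod photoreceptor markers, 1 was higher and 4 did not pass. Their sums were 10021 to 12280 RPKM in Control and 11986 to 12410 in OIR. In bulk tissue, fewer cells of a type and less RNA per cell cannot be told apart. Of the 5 Müller glia markers, 4 were lower and 1 higher in OIR, and their sum was 1487 to 1733 RPKM in Control and 1232, 1454 and 1208 RPKM in OIR 1, 2 and 3. OIR 2 was the highest OIR library in both this sum and that of the synthesis genes. That was not particular to Müller glia, as it also held for the sums of amacrine and ganglion cell and of pigment epithelium markers. OIR 2 also lay nearest to the Control mean in 86.9% of all lower calls. Of 6 amacrine and ganglion cell markers 3 were lower, with sums of 244.7 to 282.6 RPKM in Control and 167.2 to 217.6 in OIR. All 8 microglia and macrophage markers were higher, with sums of 29.9 to 33.9 RPKM in Control and 92.9 to 122.2 in OIR, as were all 5 endothelial markers, with sums of 21.9 to 24.4 and 49.9 to 57.2 RPKM. The 3 astrocyte markers summed to 9.08 to 11.6 RPKM in Control and 32.3 to 79.5 in OIR, and 2 of 2 tested were higher. The part of these cell types in the changes of cholesterol genes was not tested.

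Myelin needs much cholesterol, and myelin genes such as Mbp, Mobp and Mag set Control 1 and OIR 2 apart from the other libraries. Cnp did not, at 12.9, 10.6 and 9.77 RPKM in Control and 16.5, 17.3 and 16.7 in OIR. Opalin did not either, at 0.0232 RPKM in OIR 2 and 0.0447 in OIR 3. Mbp, a main myelin protein gene, was at 7.14, 2.61 and 1.63 RPKM in Control 1, 2 and 3 and at 1.56, 6.96 and 1.70 RPKM in OIR 1, 2 and 3. Mobp was at 0.278 RPKM in Control 1 and 0.282 in OIR 2 and at most 0.00631 elsewhere, and Mag at 0.395 and 0.518 RPKM against at most 0.152. OIR 2 is also the OIR library nearest to Control in the lower cholesterol genes. The 19 synthesis genes summed to 262.7 RPKM in Control 1, against 270.6 and 261.9 in Control 2 and 3. The part of myelin-forming cells in these levels was not tested. The oligodendrocyte genes Mog, Mobp, Mag and Opalin were each at most 0.518 RPKM in every library, and Mog was listed at 0 in 4 of 6. Of the 7 genes of that list 3 were tested and 1 passed, Cnp, as higher, and the list summed to 12.5 to 22.8 RPKM in Control and 19.3 to 26.9 in OIR. The 5 pigment epithelium markers summed to 43.7 to 48.7 RPKM in Control and 36.9 to 41.9 in OIR, and 1 of 3 tested was lower.

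Other genes of sterol and lipid handling were taken from 6 lists by function. Of 12 fatty acid genes that SREBP drives, none was higher and 1 was lower in limma and in limma-voom, against 11.6% and 7.22% of all tested genes in limma. At an unadjusted p under 0.05, 2 were higher, Me1 and Acaca, and 1 lower, against 4122 of all 12112 tested genes in either direction. Me1 and Acaca had all 3 OIR values above all Control values, with limma adjusted p of 0.0544 and 0.14. In 3 genes, Elovl6, Fads1 and Scd1, all OIR values lay below all Control values. The groups thus did not overlap in 5 of the 12 genes, near the 38.7% of all tested genes in either direction. Scd1 was at 18.1 ± 6.67 RPKM in Control and 11.4 ± 1.39 in OIR. Limma adjusted p was 0.219 for Fads1 and 0.187 for Scd1. The gene called lower was Elovl6, an elongase at 14.3 ± 1.72 RPKM in Control and 10.2 ± 1.45 in OIR, with a limma adjusted p of 0.0197. In lipoprotein uptake and sterol transport, 3 of 13 tested genes of 14 were higher and none lower, against 11.6% and 7.22% of all tested genes. Limma-voom gave the same counts, and at an unadjusted p under 0.05 the list had 5 higher and none lower. Those 5 of 13 are near the share of all tested genes, 4122 of 12112 in either direction. Npc2, the lysosomal partner of NPC1, rose from 15.1 ± 0.835 to 19.5 ± 0.815 RPKM, Scarb1, a lipoprotein receptor, from 37.8 ± 3.52 to 49.4 ± 4.29, and Lrp1, a receptor for APOE-bearing particles, from 13.2 ± 1.04 to 15.8 ± 0.843. Their limma adjusted p were 0.00841, 0.0141 and 0.0475.

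Among other efflux and LXR target genes, 2 of 11 were higher and 2 lower, against 11.6% and 7.22% of all tested genes. Limma-voom gave 2 higher and 3 lower, and at an unadjusted p under 0.05 there were 2 higher and 4 lower. Over all 12112 tested genes, 4122 had an unadjusted p under 0.05 in either direction. Apoc1 and Arl4c were at limma adjusted p of 0.0673 and 0.0522. Mylip, an LXR-induced ubiquitin ligase of lipoprotein receptors, rose from 11.4 ± 1.32 to 14.6 ± 0.966 RPKM, and Lcat, which esterifies cholesterol on lipoproteins, from 2.37 ± 0.224 to 5.78 ± 1.99 RPKM with 3.59 RPKM in OIR 2. The phospholipid transfer protein gene Pltp fell from 13.3 ± 1.63 to 8.72 ± 1.60 RPKM and the lipase gene Lpl from 7.48 ± 0.408 to 5.64 ± 0.574 RPKM. Limma adjusted p of these 4 genes were 0.0272, 0.0320, 0.0170 and 0.0173. Of 6 tested genes of sterol esters and oxysterols, out of 7, 1 was higher, against 11.6% of all tested genes. It was Soat1, which makes cholesterol esters, from 2.17 ± 0.172 to 3.05 ± 0.528 RPKM at a limma adjusted p of 0.0444.

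None of 7 genes of SREBP cleavage and sterol-regulated turnover passed in limma, nor any of 8 genes of the other isoprenoid branches. The count was also 0 with limma-voom and at an unadjusted p under 0.05. Of all 12112 tested genes, limma called 18.8%, and 4122 had an unadjusted p under 0.05. In the first list Pgrmc1 was at 126.5 ± 8.46 RPKM in Control and 113.1 ± 6.37 in OIR and the protease gene Mbtps1 at 34.7 ± 2.37 and 37.7 ± 1.74 RPKM, with limma adjusted p of 0.152 and 0.260. In the second, the prenyltransferase gene Pggt1b was at 3.98 ± 0.227 and 3.69 ± 0.124 RPKM and Dhdds, of dolichol synthesis, at 26.1 ± 1.43 and 27.2 ± 1.35 RPKM, with 0.470 and 0.593. The list medians of the log2 fold change ran from -0.01 to 0.10, against 0.03 over all tested genes. Among the called genes of these 6 lists, that of Npc2 held without each library in turn. Single libraries ended the others, at limma adjusted p from 0.0530 to 0.188: OIR 1 for Scarb1, Control 1 or OIR 1 for Elovl6, Lrp1, Mylip, Pltp, Lpl, Lcat and Soat1, and also OIR 3 for Elovl6, Lrp1, Mylip, Lpl and Soat1, Control 2 for Elovl6, Pltp, Lcat and Soat1, and Control 3 for Lrp1, Mylip, Lcat and Soat1. Soat1 also missed the threshold under median-of-ratios scaling (0.0574) and once lens reads were removed (0.0575). With no filter on low values the calls of Elovl6, Lrp1, Mylip and Soat1 ended, at 0.0579, 0.0789, 0.0649 and 0.0876.

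**Figure D5:**
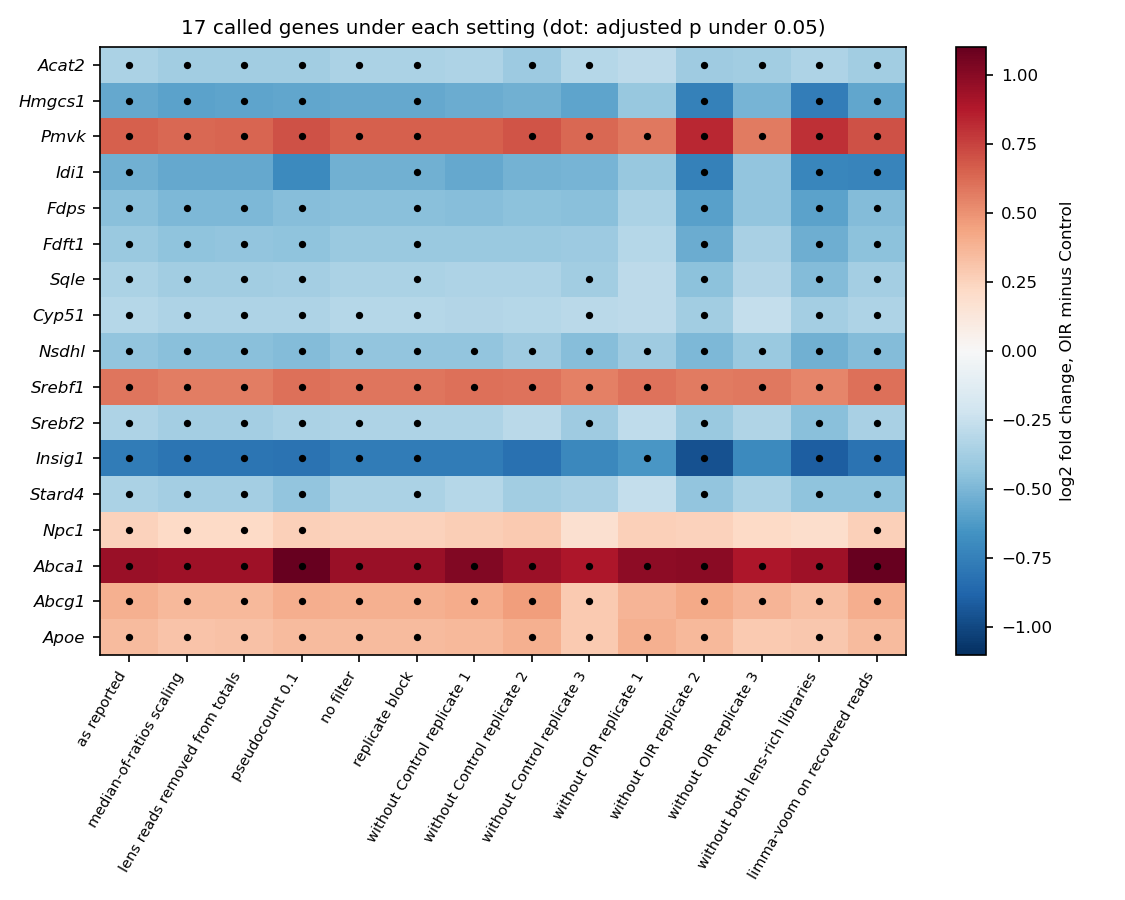
Log2 fold change of the 17 called genes (rows) in the fit as reported and in 13 alternative fits (columns), from blue for lower to red for higher in OIR, with a dot where the adjusted p was under 0.05. Colour keeps its direction along each row, which leaving out libraries could not change for groups that do not overlap. Nsdhl, Srebf1 and Abca1 carry a dot in every column.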

How the data were processed

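RNA of whole retina was sequenced in 6 libraries, and the authors deposited 1 RPKM value per gene symbol and library. The submitters' processing notes list TopHat2 2.0.12 together with Bowtie2 2.0.6. Genome build, annotation, counter and strand use were not given in the sources used here. The labels' protocol for making libraries is written for another species. RPKM is not a count, so the log scale was tested. Genes with at least 1 RPKM in at least 3 libraries (12112 of 22173) were fitted with limma 3.58.1 in R 4.3.3 (trend and robust) on log2(RPKM + 1), two-sided, with group as the only term. Such fold changes understate the change of low genes.

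Whole reads were recovered from the steps of low values. GENCODE M21 transcript lengths of 114 genes set the depth, and 17952 of 17953 genes above 0 came out whole within 0.02 of a read. The fit was tested on simulated data, whose spread was set and not taken from these libraries. It called 19% of 1.25-fold, 80.7% of 1.5-fold and 100% of 2-fold changes, and 0.0929% of unchanged genes. Small changes can therefore be missed.

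The 31 genes and the other lists were chosen with earlier results of these data known. All 31 were named, and from each further list the called genes with the smallest adjusted p, up to 4, or up to 2 where none passed. Alternatives were median-of-ratios scaling, lens reads removed from totals, a pseudocount of 0.1, no filter, a block for the replicate number, leaving out each library or both lens-rich ones, and limma-voom on recovered reads. Promoters are from RefSeq on GRCm38.p6.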

Additional observations from a re-analysis of the deposited data

How the results depend on the processing

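With no filter, 5 cholesterol genes were lower and 5 higher, and 529 of all genes were lower, where 5841 more genes were tested (calls of Hmgcs1, Idi1, Fdps, Fdft1, Sqle, Stard4 and Npc1 ended). Without both lens-rich libraries 1943 genes were lower and 14 cholesterol genes. Leaving out each library gave 1 to 14 lower and 3 to 6 higher cholesterol genes, and 212 to 1293 lower and 513 to 1754 higher genes over all tested. Limma-voom gave 12 lower and 6 higher cholesterol genes. The cause of these moves was not tested. Deviations of same-numbered Control and OIR libraries correlated at 0.222, -0.440 and -0.414. The highest correlation was 0.493, for Control 3 with OIR 2, both lens-rich. Deviations were taken from each group's own mean, so correlations of both signs had to occur. They therefore cannot show whether the numbers pair the libraries. With the replicate block 12 cholesterol genes were lower and 5 higher (Npc1 adjusted p 0.0683, Msmo1 0.0257), and 809 and 1222 over all genes. That block also ended the calls of Lrp1 and Soat1, at 0.0745 and 0.0606. Depth differed by a ratio of 1.07 between libraries. Nr1h3 and Idi1 had the fewest reads of the cholesterol genes, with 88 and 197 in their lowest library. Whether depth limited their results was not tested.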
